A study of Mus musculus with 188 samples.

Results

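The genes described here are 43 mouse genes of DNA replication and S phase, listed by symbol and matched through the Ensembl identifiers of the deposited count tables. All 43 were found among the 25655 identifiers counted in batch 1 and the 25528 counted in batches 2 and 3, and all 43 passed the filter on low counts in both sets. RNA came from organotypic brain slice cultures (BSCs) of C57BL/6J mice of both sexes aged 6 to 8 weeks, exposed from day 7 of culture. Batch 1 held 10 libraries each of Ctrl (24 h), heme-albumin at 12.5, 50, 200 and 400 μM, and 200 μM hemeHpx (heme bound to hemopexin), all at 24 h. The titles of the hemeHpx libraries name haptoglobin instead, and the treatment tags were followed. Batches 2 and 3 held 12 labelled groups, with 10 Ctrl libraries at 24 h and 9 at 48 h, and 10 of free hemoglobin (Hb) at each of 200 and 400 μM and each time. Hemoglobin bound to haptoglobin (HbHp) at 200 μM had 8 libraries per time, HbHp at 400 μM had 4 at 24 h and 5 at 48 h, and haptoglobin alone (Hp, 400 μM) had 12 and 11. The library names of batches 2 and 3 also give the culture round. All HbHp libraries with a group were of round 2 and batch 3, and all Hp libraries of batch 3. For 21 further libraries the labels conflict, and they entered no comparison. Of these, 20 have titles that name hemoglobin with haptoglobin but a treatment tag of HbHpx, and 14 of the 20 were of round 1. Ctrl in round 1 had 6 libraries of batch 2 and 1 of batch 3 at each time, against 3 Ctrl libraries in round 2 at 24 h and 2 at 48 h. The labels do not tell whether libraries of a group came from separate animals, so p-values measure only the spread between these libraries, which may be technical.

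Before DNA can be copied, each origin is licensed: the origin recognition complex, Cdc6 and Cdt1 load the MCM helicase ring onto DNA in G1. At the G1/S boundary cyclin E with its kinase and the E2F transcription factors raise the replication genes, Cdc45 and the GINS complex join MCM to form the active helicase, and primase and the polymerases copy both strands on the Pcna clamp. In the adult brain most neurons have left the cell cycle, and replication is known mainly from progenitors, oligodendrocyte precursors and activated glia. In bulk RNA, fewer replicating cells and less RNA per cell cannot be told apart.

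Many replication genes are known targets of E2F, so their promoters were read. The table of RefSeq promoters (GRCm38.p6, 250 bases before to 50 bases after each start site) held 41 promoters of 35 of the 43 genes. Mcm4, Gins1, Gins2, Gins4, Rfc2, Prim2, Pole and Ccne2 had no entry. The E2F letters TTTCCCGC, TTTCGCGC, TTTGCCGC and TTTGGCGC were searched on both strands, and 14 of the 35 genes held at least 1 of them, against 2.605% of the 27025 genes in the table. The CCAAT box (CCAAT, both strands) was present in 57.1% of the 35 genes and 41.1% of all genes. The cell cycle element CHR (TTTGAA or TTCGAA, both strands) was present in 20.0% against 21.7%. Matches of the E2F letters can overlap each other. Shown are the 250 bases before the start site for 3 genes with a match and for Rrm2, which has none in its window, all on the plus strand, with E2F matches in capitals. These genes recur in the results that follow. Mcm5 is a subunit of the helicase ring, and its 2 matches overlap, so that they form 1 run of capitals. Cdc6 loads the ring, Uhrf1 brings the enzyme that copies DNA methylation to newly replicated DNA, and Rrm2 is the small subunit of ribonucleotide reductase, which makes deoxynucleotides. For Uhrf1 the promoter shown is the one of its 2 entries that holds a match.
Mcm5 (chr8:75109259-75109508): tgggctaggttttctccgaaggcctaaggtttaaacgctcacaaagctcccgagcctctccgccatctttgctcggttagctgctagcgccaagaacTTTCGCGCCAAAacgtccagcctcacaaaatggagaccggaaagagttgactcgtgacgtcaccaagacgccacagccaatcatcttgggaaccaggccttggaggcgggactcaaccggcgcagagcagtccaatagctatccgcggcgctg
Cdc6 (chr11:98907901-98908150): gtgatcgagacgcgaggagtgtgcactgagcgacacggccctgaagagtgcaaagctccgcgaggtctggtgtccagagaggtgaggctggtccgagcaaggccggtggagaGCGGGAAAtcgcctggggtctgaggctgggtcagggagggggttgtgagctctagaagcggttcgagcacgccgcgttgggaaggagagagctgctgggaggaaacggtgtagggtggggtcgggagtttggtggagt
Uhrf1 (chr17:56304063-56304312): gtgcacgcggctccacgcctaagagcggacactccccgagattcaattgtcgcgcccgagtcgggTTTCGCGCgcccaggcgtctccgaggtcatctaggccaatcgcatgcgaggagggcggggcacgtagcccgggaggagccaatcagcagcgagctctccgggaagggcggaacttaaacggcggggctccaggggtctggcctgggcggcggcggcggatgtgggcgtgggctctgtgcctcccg
Rrm2 (chr12:24708004-24708253): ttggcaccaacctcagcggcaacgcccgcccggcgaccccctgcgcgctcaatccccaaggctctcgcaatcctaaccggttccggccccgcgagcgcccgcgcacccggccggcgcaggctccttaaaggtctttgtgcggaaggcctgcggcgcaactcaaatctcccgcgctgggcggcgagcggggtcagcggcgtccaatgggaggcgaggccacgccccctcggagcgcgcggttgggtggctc
The matches begin 153 and 149 bases before the start site in Mcm5, 138 in Cdc6 and 185 in Uhrf1. A match is a description of the letters and not a mapped binding site.

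Levels are CPM, read counts relative to library size after TMM scaling, with batch 1 scaled apart from batches 2 and 3, so levels are compared only within a set and only within a gene. A gene was called changed at an adjusted p under 0.05 in edgeR's quasi-likelihood test over all genes (15554 in batch 1, 16473 in batches 2 and 3), and SE is the standard error of a log2 fold change. Total counts ran from 11038484 to 44199060 in batch 1, from 32626873 to 54174784 in batch 2 and from 15587938 to 38839614 in batch 3. All markers of the 8 cell types listed for BSCs were tested, and only Slc17a7, a marker of excitatory neurons, had a median level under 1 CPM in both sets. In 14 of the 43 genes another counted gene overlaps (Mcm7, Cdc45, Gins2, Orc6, Fen1, Lig1, Rfc2, Rfc4, Rfc5, Prim2, Rrm1, Tk1, Ccne2 and Chaf1a), and whether counting used the strand is not given in the sources used here. Pcna and Tyms have annotated pseudogenes, so their counts are uncertain in the same way.

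Over all groups of batches 2 and 3 together, more of the replication genes were called between culture rounds than for any treatment fitted with both rounds together. With group and batch in the model, 33 of the 43 genes were lower and 3 higher in round 2 than in round 1, while 31.9% of all genes were called lower and 36.1% higher. The median log2 fold change was -0.25 over the 43 and 0.02 over all genes. The 9 polymerase, primase and RPA genes and the 5 nucleotide supply genes were all lower, as were 5 of 6 MCM genes. Rrm2 fell by 0.59 on the log2 scale (SE 0.05, adjusted p = 1.09e-17), Pole, the catalytic subunit of the leading strand polymerase, by 0.51 (adjusted p = 3.6e-14) and Uhrf1 by 0.51 (adjusted p = 1.58e-11). Dut, which removes dUTP, fell by 0.44 and Pola1, the catalytic subunit of the primer-extending polymerase, by 0.43. The 3 genes that were higher were Pcna (0.11, SE 0.04), Cdt1 (0.18, SE 0.05) and the GINS subunit Gins4 (0.23, SE 0.03). The value for Pcna, round 2 vs round 1, turned to -0.0632 in control libraries only and was not called there (adjusted p = 0.561). In Ctrl at 24 h, Rrm2 was at 104.8, 119.9 and 149.1 CPM (lowest, median and highest of 7) in round 1 and at 57.53, 52.5 and 62.15 CPM in the 3 libraries of round 2. The groups did not overlap. With each group split by round, 37 genes were lower in round 2 among the 24 h Ctrl libraries (11.8% of all genes called lower) and 21 lower and 3 higher among the 48 h Ctrl libraries (19.3% and 19.2% of all genes). At 24 h, 20 genes were lower with 200 μM Hb (3.54% of all genes), 27 with 400 μM Hb (4.92%) and 27 with Hp, where 1 was higher (18.3% and 19.8%). At 48 h, 15 were lower and 2 higher with 200 μM Hb (16.5% and 13.9%) and 1 was lower with 400 μM Hb (3.6%). Hp at 48 h went the other way, with 12 genes higher in round 2 and none lower (median 0.17, 35 of 43 above 0, 11.9% of all genes called higher). Microglial markers moved the other way: 9 of 9 rose in round 2 (median 1.16), their summed level ran from 405.5 to 4118 CPM in round 1 and from 1174 to 5591 CPM in round 2, and all 7 oligodendrocyte markers rose (0.47). Of the mural cell and fibroblast markers 5 of 6 rose (0.70), of the endothelial markers 5 rose and 1 fell (0.39) and of the 8 neuronal markers 5 rose and 1 fell (0.46). Among astrocyte markers 3 rose and 3 fell, as among those of oligodendrocyte precursors. Of the 6 neural progenitor markers 4 fell and 1 rose (-0.42). Their part in the result was not tested.

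**Figure D1:**
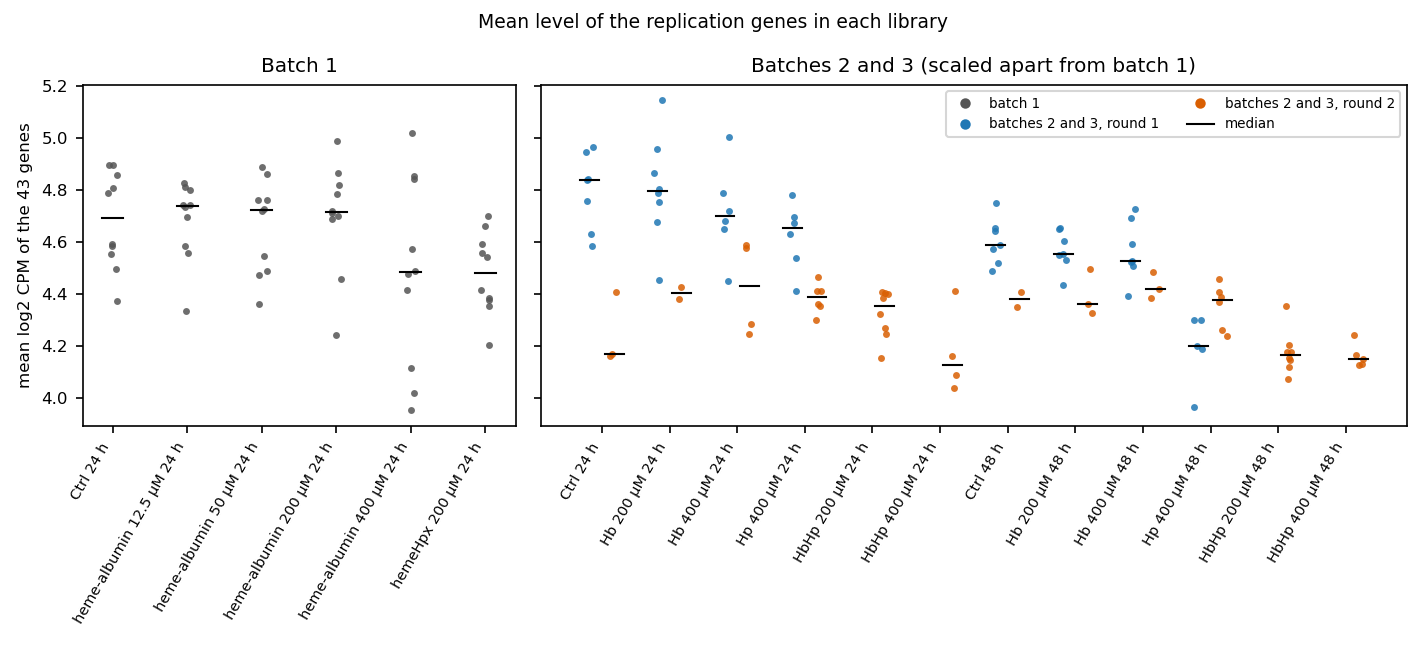
Mean log2 CPM of the 43 genes (y axis) in every library by group (x axis), batch 1 on the left and batches 2 and 3, scaled apart, on the right, each dot a library, colored by culture round, with the median as a line. Round 2 libraries of Ctrl lie lower than those of round 1 at both times (medians 4.17 against 4.84 at 24 h), and the 5 Hp libraries of round 1 at 48 h (3.97 to 4.3) lie below all 7 Ctrl libraries of that round (4.49 to 4.75).

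Heme-albumin, the low-affinity carrier form of heme, was tested at 4 doses in batch 1. None of the 43 genes was called at 12.5, 50 or 200 μM by edgeR or by DESeq2, where 0, 1 and 3 genes had an unadjusted p under 0.05. Their median log2 fold changes were 0.01, -0.03 and -0.01. Without a replicate block 13.6% of all genes were called at 200 μM, 0.463% at 50 μM and 0.045% at 12.5 μM. With the code in the library name as a replicate block 2 genes were lower at 200 μM, and 8.09% of all genes, and none was called at 12.5 or 50 μM. With that block 17.4% of all genes were called in either direction at 200 μM, 1.27% at 50 μM and 0.141% at 12.5 μM. Mcm5 at 39.01, 68.36 and 78.66 CPM with 200 μM (lowest, median and highest) covered the Ctrl range of 39.01, 55.63 and 68.48 CPM, and its log2 fold change was 0.24 (adjusted p = 0.272). At 200 μM, 7 of 9 microglial (median -0.83), 4 of 8 astrocyte (-0.30), 1 of 6 endothelial and 1 of 6 mural markers fell. Of 7 markers of oligodendrocyte precursors 1 rose. The part of these markers in the result was not tested.

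At 400 μM heme-albumin 9 of the 43 genes were lower and none was higher, while 14.3% of all genes were called lower. With the code in the library name as a replicate block 17 of the 43 were lower, and 16.6% of all genes. The median over the 43 was -0.20 and over all genes -0.01. Of the 6 MCM genes 1 fell, of the 10 licensing and firing genes 2, of the 9 polymerase genes 1, of the 7 clamp, nuclease and ligase genes 2, of the 5 nucleotide genes 2, of the 3 G1/S regulators 1 and of the 3 chromatin genes none. Tk1, the thymidine kinase of S phase, fell most, by 0.45 (SE 0.13, adjusted p = 0.00528), from 15.36, 19.25 and 30.22 CPM in Ctrl to 9.783, 16.15 and 23.72 CPM. The GINS subunit Gins1 fell by 0.44 (SE 0.11, adjusted p = 0.00107), cyclin E2 (Ccne2) by 0.42 (SE 0.16, adjusted p = 0.0352), Mcm6 by 0.34 (SE 0.09, adjusted p = 0.00514) and thymidylate synthase (Tyms) by 0.33 (SE 0.12, adjusted p = 0.0337). Pcna, the sliding clamp, had 119.3, 132.6 and 148.8 CPM in Ctrl and 95.94, 106.3 and 142.9 CPM with 400 μM. It fell by 0.26 (SE 0.06, adjusted p = 0.000546). No gene of the 43 had all 10 treated libraries below all 10 Ctrl libraries, against 0.733% of all genes. The 10 libraries at 400 μM were wide apart: the mean log2 CPM of the 43 genes ran from 3.95 to 5.02 (SD 0.37), against 4.37 to 4.89 in Ctrl (SD 0.19). The 3 lowest libraries (3.952, 4.019 and 4.115) had the 3 highest summed levels of oligodendrocyte markers in their group (27520, 27170 and 26980 CPM, against 14840 to 21280 in the other 7). They also had the 3 highest microglial sums (1645, 1337 and 1682 CPM, against 478.8 to 1159 in the other 7). Their neural progenitor sums were the 3 lowest (593.3, 741.9 and 660.5 CPM, against 863.3 to 1229). The lowest Ctrl library (4.373) likewise had the highest oligodendrocyte and microglial sums in Ctrl (29280 and 2969 CPM). Of the marker lists, 4 of 9 microglial (median -0.70), 5 of 8 astrocyte (-0.42) and 2 of 6 neural progenitor markers (-0.32) fell, as did 1 of 6 endothelial and 1 of 6 mural markers. The summed level of the progenitor markers was not lower. It had 593.3, 895.6 and 1229 CPM at 400 μM (lowest, median and highest) and 338.4, 816.8 and 1061 CPM in Ctrl. Of 7 markers of oligodendrocyte precursors 2 fell and 1 rose, of 8 neuronal markers 1 rose, and none of 7 oligodendrocyte markers was called. The share of counts from mitochondrial genes was 3.28% (SD 0.609, n = 10) at 400 μM, against 4.20% (SD 1.14, n = 10) in Ctrl, with overlapping ranges (2.576% to 4.677% and 3.066% to 5.571%), and its mean was 3.55% to 3.61% at the 3 lower doses. The part of these markers and of the mitochondrial share in the result was not tested.

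With 200 μM hemeHpx, the complex with the high-affinity scavenger, 5 of the 43 genes were lower and none higher than in Ctrl (median -0.22, all genes 0.00), while 4.44% of all genes were called lower. Cyclin E2 (Ccne2) fell by 0.52 (SE 0.16, adjusted p = 0.0401), Pola1 by 0.44 (SE 0.13, adjusted p = 0.0411) and Tyms by 0.37 (SE 0.12, adjusted p = 0.0486). The primase subunit Prim2 and Gins1 each fell by 0.33 (SE 0.11, adjusted p = 0.0445 and 0.0472). Tyms had 12.22, 17.76 and 21.33 CPM in Ctrl and 10.85, 13.48 and 17.09 CPM with hemeHpx, so the ranges overlapped. Rrm2 had 66.91, 112.6 and 147.3 CPM in Ctrl and 54.66, 77.89 and 104.3 CPM with hemeHpx. Its log2 fold change of -0.46 did not pass the test (adjusted p = 0.0665). The calls lay close to the threshold: without a filter on low counts none of the 5 passed, and with DESeq2 8 genes did. All genes called in either direction made up 8.2% in the edgeR fit, 1.24% without the filter and 12.9% with DESeq2. With the replicate block 15 genes were lower, and 12.2% of all genes. Of all the cell type markers 1 was called, an oligodendrocyte precursor marker that rose. The share of counts from mitochondrial genes was 3.29% (SD 0.466, n = 10; 2.901% to 4.514%), below the mean of 4.20% in Ctrl. The part of either in the result was not tested. Over the same lists, 7 of 41 other replication genes fell and 1 rose, and 3 of 22 mitosis genes fell.

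Against heme-albumin at the same dose, hemeHpx had 12 lower genes and no higher one (median -0.24, all genes 0.01), while 12.9% of all genes were called lower. With the replicate block there were 18, and 16.1% of all genes. Of the 12, 3 were MCM genes, 5 were polymerase or primase genes and 2 were licensing or firing genes, among them Gins3. Orc1, the largest subunit of the origin recognition complex, fell by 0.46 (adjusted p = 0.0358), Pole by 0.40 (adjusted p = 0.0288), Ccne2 by 0.40 (adjusted p = 0.0488), the primase Prim1 by 0.39 (adjusted p = 0.0226) and the clamp loader subunit Rfc3 by 0.38 (adjusted p = 0.00877). Mcm2 had 53.24, 75.66 and 86.12 CPM with heme-albumin and 43.16, 57.66 and 73.11 CPM with hemeHpx. It fell by 0.36 (adjusted p = 0.0302), with overlapping ranges. E2f1, a transcription factor of the G1/S switch, had 12.56, 15.8 and 17.67 CPM against 13.83, 16.85 and 19.71 CPM and was not called (0.11, adjusted p = 0.386). Of the microglial markers, 8 of 9 were higher with hemeHpx than with heme-albumin (median 0.94), as were 4 of 8 astrocyte (0.23), 3 of 7 oligodendrocyte (0.35) and 2 of 6 endothelial markers (0.19). The share of all genes called higher was 13%. Against Ctrl, 7 of 9 microglial (median -0.83) and 4 of 8 astrocyte markers (-0.30) were lower with 200 μM heme-albumin. With hemeHpx no marker of either list was called against Ctrl. Of 7 markers of oligodendrocyte precursors 1 was higher and 2 were lower, and no neuronal, mural or neural progenitor marker was called. Their part in the result was not tested.

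Free Hb gave no call among the 43 genes at either dose or time, with edgeR or with DESeq2. At an unadjusted p under 0.05 there were 2 genes for 200 μM at 24 h and 0 in the other 3 comparisons. The medians were 0.06 (200 μM, 24 h), -0.02 (200 μM, 48 h), -0.02 (400 μM, 24 h) and 0.00 (400 μM, 48 h), with 0.0971%, 0.31%, 0.522% and 0.601% of all genes called. In this fit the largest log2 fold change of any of the 43 was 0.18, in Mcm5 with 200 μM at 24 h, and within round 2 values reached 0.45 and 0.46 at 24 h (200 and 400 μM) and 0.39 and 0.55 at 48 h, none of them called. In the fit of both rounds the median SE over the genes was 0.09. In round 1 at 48 h, Mcm5 had 42.84, 47.31 and 52.54 CPM in Ctrl, 45.53, 47.32 and 52.82 CPM with 200 μM Hb and 38.48, 46.7 and 57.21 CPM with 400 μM Hb. These ranges overlapped. The medians of the shared fit pool rounds that differed in sign at both times, more widely at 24 h. At 24 h the median was -0.01 in round 1 and 0.19 in round 2 with 200 μM (19 and 40 of 43 genes with a value above 0), and -0.10 and 0.21 with 400 μM (3 and 42 of 43). At 48 h it was -0.03 and 0.02 with 200 μM, and -0.03 and 0.09 with 400 μM. The difference between rounds was called for none of the 43 by edgeR, with 6 and 19 genes at an unadjusted p under 0.05 at 24 h (200 and 400 μM), 0 and 3 at 48 h, and 0% of all genes called in each. Within round 1 and within round 2 the count stayed at 0 for each dose and time, with 10 genes (200 μM) and 9 genes (400 μM) at an unadjusted p under 0.05 in round 2 at 24 h and at most 1 in each of the other 6 comparisons. In round 1 the shares of all genes called were 0.154% and 0.231% at 24 h and 0.237% and 0.539% at 48 h for 200 and 400 μM, and in round 2 they were 0% and 0.124%, and 0.0414% and 0.189%.

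With HbHp, 6 to 22 of the 43 genes were lower than with Ctrl in the fit that took both rounds together. At 24 h 6 genes were lower with 200 μM (median -0.25, 0.273% of all genes called lower) and 22 with 400 μM (median -0.41, 2.06%). At 48 h 20 genes were lower with 200 μM (median -0.28, 4.85%) and 19 with 400 μM (median -0.34, 4.56%). The medians over all genes lay between -0.01 and 0.00, and no gene was higher. All HbHp libraries were of round 2, where Ctrl had only 3 and 2 libraries, and this fit takes the round from other groups, so values within round 2 are given with them. The shared round term had a median of -0.25 over the 43 genes. Within Ctrl the median of round 2 against round 1 was -0.63 at 24 h and -0.29 at 48 h. At 24 h the shared term thus removes less than the round difference of Ctrl. With batch 3 alone, 3 and 8 genes were lower at 24 h (200 and 400 μM; 0.593% and 0.781% of all genes) and 2 and 2 at 48 h (0.86% and 1.43%). With the replicate block the counts were 1 and 13 at 24 h (0.109% and 1.03% of all genes), and 20 at each dose at 48 h (5.49% and 4.32%).

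At 400 μM and 24 h the MCM ring was lower as a whole (6 of 6), as were 3 of 10 licensing and firing genes, 2 of 9 polymerase genes, 3 of 7 clamp, nuclease and ligase genes, 4 of 5 nucleotide genes, 1 of 3 G1/S regulators and 3 of 3 chromatin genes. Tk1 had 15.33, 15.04, 15.24 and 21.07 CPM in the 4 HbHp libraries and 17.19, 18.06 and 22.96 CPM in the 3 Ctrl libraries of round 2. Its log2 fold change was -0.76 (SE 0.16, adjusted p = 0.00103). Uhrf1 had 31.77, 34.73, 30.33 and 50.59 CPM, against 41.6, 39.9 and 46.74 CPM in Ctrl of round 2, and fell by 0.68 (SE 0.17, adjusted p = 0.0087). For both genes 3 HbHp libraries lay below all 3 Ctrl libraries of the round, and the fourth lay among or above them. Cyclin E1 (Ccne1) had 9.959, 9.01, 10.5 and 11.74 CPM against 12.25, 10.94 and 14.09 CPM and fell by 0.63 (SE 0.13, adjusted p = 0.000479). Mcm5 fell by 0.62 (SE 0.13, adjusted p = 0.000716) and Rrm2 by 0.61 (SE 0.14, adjusted p = 0.00323). Within round 2 these log2 fold changes were smaller and not called: -0.28 for Tk1 (SE 0.16), -0.36 for Uhrf1 (SE 0.19), -0.35 for Ccne1 (SE 0.13), -0.29 for Mcm5 (SE 0.13) and -0.22 for Rrm2 (SE 0.15). Within round 2 none of the 43 was called at 24 h (median -0.17 for 400 μM with 8 genes at an unadjusted p under 0.05 and 1.37% of all genes called; median -0.015 for 200 μM with 1 such gene and 0.349%). Tk1 at 200 μM turned from -0.50 (SE 0.13, adjusted p = 0.0246) to 0.03 when only round 2 was fitted. Without replicate 1 of the 4 HbHp libraries the count at 400 μM fell from 22 to 9, without replicate 3 to 14, and without replicate 4 it was 31. The share of all genes called in either direction went from 5.15% to 1.94%, 3.37% and 7.69% in these fits. Of the cell type markers 1 of 7 of oligodendrocyte precursors was lower at 400 μM in both rounds together (median -0.22) and none was called at 200 μM. Among the 4 HbHp libraries at 400 μM, replicate 4 stood apart in the mean log2 CPM of the 43 genes (4.409, against 4.036 to 4.162). Its summed markers were lower for microglia (1686 CPM, against 2447 to 3145), mural cells (430.7, against 814.8 to 1377) and endothelium (77.74, against 112.6 to 128.4). Its neural progenitor sum was higher (452.9 CPM, against 290.1 to 355). Of the 3 Ctrl libraries of round 2, replicate 8 stood apart, with endothelial markers at 317.2 CPM (78.57 and 80.14 in the other two) and mural markers at 1996 CPM (443.9 and 608.6). Replicate 11 stood apart in the mean log2 CPM of the 43 genes (4.406, against 4.162 and 4.168), in the summed microglial markers (3250 CPM, against 1477 and 1603) and in the share of counts from mitochondrial genes (1.899%, against 2.797% and 2.837%). The part of these markers and of the mitochondrial share in the result was not tested.

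At 200 μM and 24 h the other called genes were Ccne1 (-0.44, SE 0.10, adjusted p = 0.00875), the helicase subunit Mcm3 (-0.42), the DNA ligase Lig1 (-0.40), the flap nuclease Fen1 (-0.35, SE 0.08, adjusted p = 0.00402) and the chromatin assembly factor subunit Chaf1a (-0.35). Within round 2 none of them was called, and their log2 fold changes were -0.16 for Ccne1 (SE 0.11), -0.09 for Mcm3 (SE 0.11), -0.09 for Lig1 (SE 0.11), -0.19 for Fen1 (SE 0.08) and -0.16 for Chaf1a (SE 0.11). Ccne1 had 10.77, 11.46 and 14.17 CPM in the 8 HbHp libraries, which covered the 3 Ctrl values of that round. Without Ctrl replicate 7 the count rose from 6 to 13, and without Ctrl replicate 8 to 10, while the share of all genes called in either direction went from 1.93% to 2.48% and 2.11%. Without Ctrl replicate 10 the count was 5 (1.49%), and without replicate 11 it was 6 (0.698%).

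At 48 h part of the calls were also made within round 2. With 200 μM, 5 of 6 MCM genes, 3 of 10 licensing genes, 3 of 9 polymerase genes, 2 of 7 clamp, nuclease and ligase genes, 2 of 5 nucleotide genes, 2 of 3 G1/S regulators and 3 of 3 chromatin genes were lower. With 400 μM these counts were 5, 2, 3, 3, 2, 1 and 3. Within round 2, 9 genes were lower with 200 μM (median -0.25) and 8 with 400 μM (median -0.31), all among the genes called in both rounds together, with 1.81% and 1.38% of all genes called lower. That round had 2 Ctrl libraries. Without replicate 7 there were 0 calls at either dose and without replicate 9 there were 2 at each, in fits with 1 Ctrl library left, which is assumed to vary like the other groups. The share of all genes called in either direction fell likewise, from 4.01% at each dose to 0.522% and 1.18% without replicate 7 (200 and 400 μM) and to 0.361% and 0.613% without replicate 9.

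Tk1 had 14.03, 17.84, 16.27, 17.26 and 17.98 CPM with 400 μM HbHp at 48 h, against 29.98 and 27.17 CPM in Ctrl of round 2 and 26.37, 28.78 and 30.62 CPM (lowest, median and highest of 7) in Ctrl of round 1. All 5 HbHp libraries lay below all 9 Ctrl libraries. The log2 fold change was -0.75 (SE 0.15, adjusted p = 0.00024) in both rounds together and -0.85 (SE 0.16, adjusted p = 0.000351) within round 2. With 200 μM it was -0.62 (SE 0.14, adjusted p = 0.000721) and -0.73 (SE 0.15, adjusted p = 0.00179), at 15.42, 17.86 and 21.7 CPM. Lig1, which seals Okazaki fragments, was at -0.54 (SE 0.11, adjusted p = 0.000391) with 400 μM and -0.52 (SE 0.10, adjusted p = 0.000163) with 200 μM, and at -0.63 and -0.61 within round 2. Pole was at -0.56 (SE 0.14) and -0.58 (SE 0.13), and at -0.58 and -0.60 within round 2. These 3 genes were called in each of these fits.

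Uhrf1 and Rrm2 were called with HbHp at 48 h in both rounds together and at neither dose within round 2. Uhrf1 had 33.75, 38.75, 32.7, 33.33 and 38.86 CPM with 400 μM HbHp and 40.6 and 43.03 CPM in Ctrl of round 2, without overlap. Its log2 fold change was -0.57 (SE 0.17, adjusted p = 0.0132) and within round 2 -0.37 (adjusted p = 0.331). Rrm2 had 48.99, 53.63, 48.56, 42.26 and 58.19 CPM, against 64.62 and 60.43 CPM in Ctrl, also without overlap, and was at -0.52 (adjusted p = 0.00484) and -0.39 within round 2 (adjusted p = 0.156). Cdc6 with 200 μM had 4.952, 6.06 and 6.547 CPM, below both Ctrl libraries of the round (7.044 and 8.795 CPM). It fell by 0.50 (SE 0.13, adjusted p = 0.00359), and by 0.48 within round 2 (adjusted p = 0.0478). Mcm7 with 400 μM fell by 0.53 (SE 0.13, adjusted p = 0.00178), and within round 2 it was at -0.41 and not called (adjusted p = 0.119). Counted within round 2, all 5 HbHp libraries at 400 μM lay below both Ctrl libraries for 22 of the 43 genes (10.5% of all genes), and all 8 at 200 μM for 12 (8.33% of all genes). Microglial markers summed to 4969 and 5582 CPM in these 2 Ctrl libraries to 1806 to 4861 CPM in the 5 HbHp libraries at 400 μM and to 2614 to 4323 CPM in the 8 at 200 μM. Neuronal markers summed to 569.3 and 673.7 CPM in Ctrl and to 291.7 to 502 CPM in the 13 HbHp libraries. Both sums were lower in every HbHp library than in both Ctrl libraries. Neural progenitor markers summed to 207.1 and 262 CPM in Ctrl and to 171 to 426.4 CPM with HbHp. There most HbHp libraries lay above both Ctrl libraries. Within round 2, 1 of the 9 microglial (median -0.80) and 1 of 8 astrocyte markers (-0.10) were called lower with 400 μM. In both rounds together 1 of 9 microglial (-0.39), 2 of 8 astrocyte (-0.35) and 1 of 7 oligodendrocyte markers (-0.28) were lower with 400 μM, and 1 astrocyte marker and 1 marker of oligodendrocyte precursors with 200 μM. Their part in the result was not tested.

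**Figure D2:**
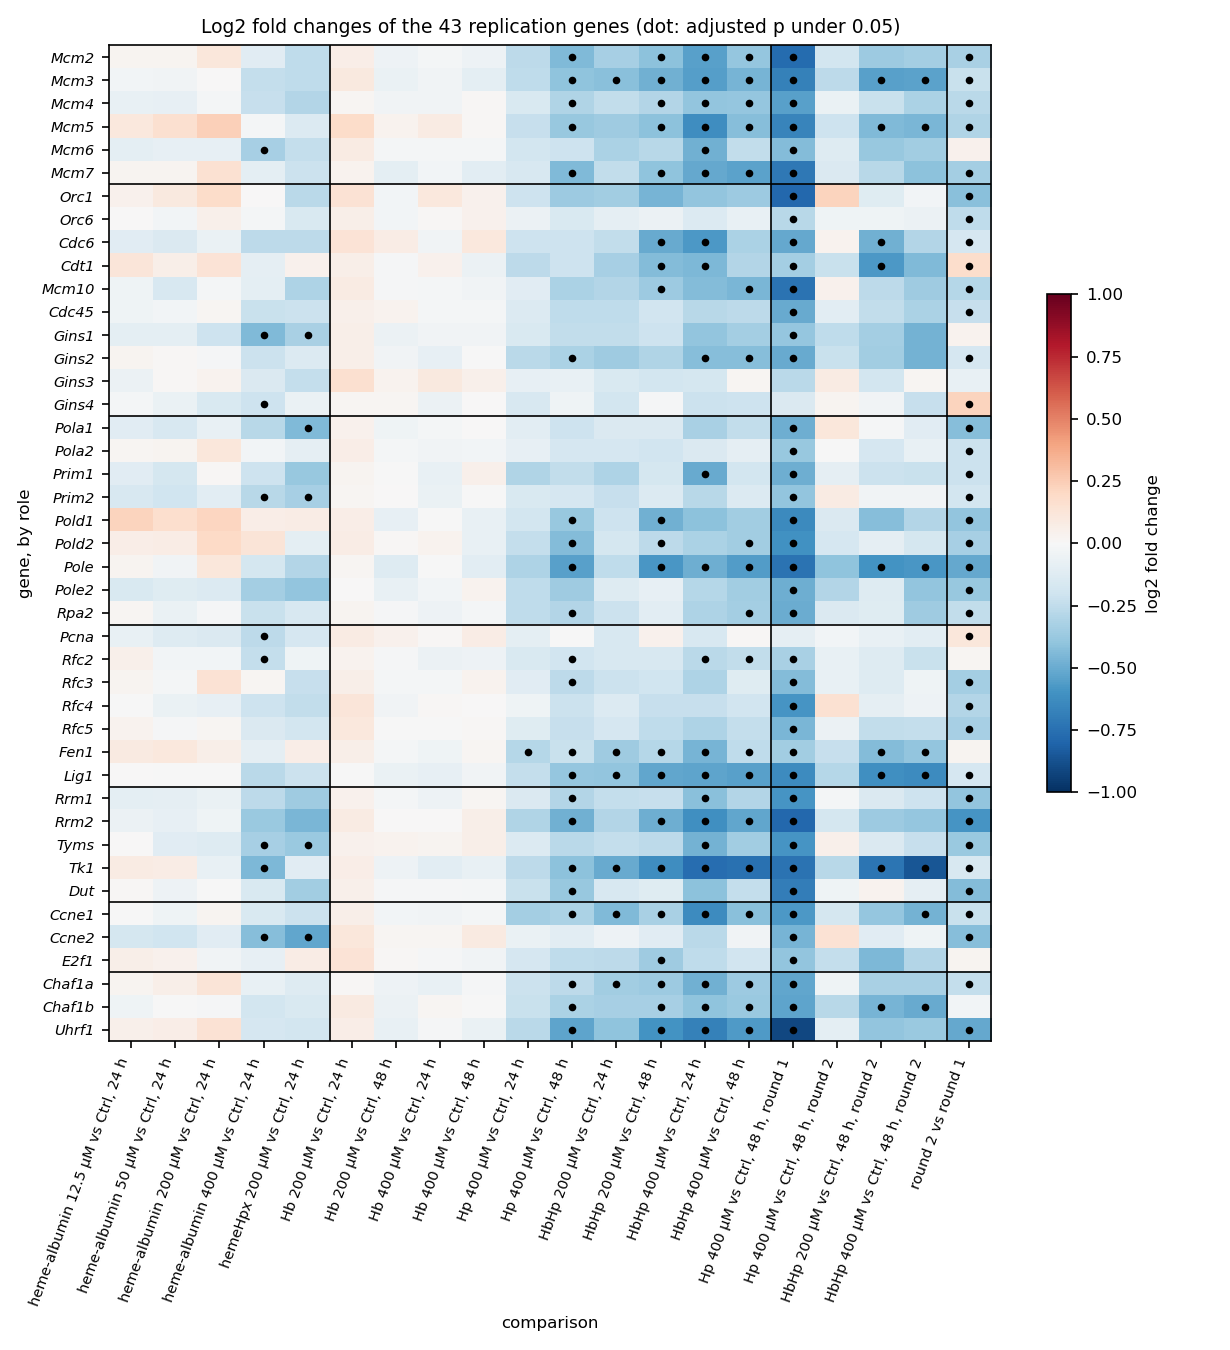
Log2 fold changes (color) of the 43 genes (rows, grouped by role with lines between roles) in 20 comparisons (columns), with a dot where the adjusted p was under 0.05. The 4 Hb columns have no dot, the column of Hp at 48 h in round 1 has 40 and that of Hp at 48 h in round 2 has none.

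Haptoglobin alone, without hemoglobin, gave 1 lower gene at 24 h and 22 at 48 h in both rounds together (medians -0.19 and -0.27), with 0.231% and 5.88% of all genes called lower. The gene at 24 h was Fen1 (-0.29, SE 0.07, adjusted p = 0.0303), which overlaps another counted gene. With the replicate block none of the replication genes described here was called at 24 h, while 0.0728% of all genes were called lower. The 22 genes at 48 h took in 5 of 6 MCM genes, 1 of 10 licensing genes, 4 of 9 polymerase genes, 4 of 7 clamp, nuclease and ligase genes, 4 of 5 nucleotide genes, 1 of 3 G1/S regulators and 3 of 3 chromatin genes. Pole was at -0.54 (SE 0.11, adjusted p = 0.00121), Uhrf1 at -0.52 (SE 0.13, adjusted p = 0.00656), Rrm2 at -0.48 (SE 0.11, adjusted p = 0.00227), and Mcm2 and Mcm7 each at -0.44. Of the cell type markers in this fit, 2 of 6 neural progenitor (median -0.61), 1 of 8 astrocyte (-0.19) and 1 of 7 oligodendrocyte precursor markers (-0.09) fell and 1 of 6 mural markers rose (0.38). Their part in the result was not tested.

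The rounds differed. Within round 1 at 48 h, 40 of the 43 genes were lower with Hp than with Ctrl (median -0.51, all genes 0.01), while 11.3% of all genes were called lower. All 6 MCM genes, 8 of 10 licensing and firing genes, all 9 polymerase, primase and RPA genes, 6 of 7 clamp, nuclease and ligase genes, all 5 nucleotide genes, all 3 G1/S regulators and all 3 chromatin genes were lower. Gins3, Gins4 and Pcna did not pass (-0.27, -0.14 and -0.09). Within round 2 none of the 43 was called (5 with an unadjusted p under 0.05, median -0.10, 0.0533% of all genes called), and there Ctrl had 2 libraries.

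In round 1 Rrm2 had 70.59, 69.98, 65.76, 54.63 and 66.72 CPM in the 5 Hp libraries and 89.62, 101.8 and 128 CPM (lowest, median and highest) in the 7 Ctrl libraries. Every Hp library lay below every Ctrl library, and the log2 fold change was -0.79 (SE 0.12, adjusted p = 2.11e-06). Uhrf1 had 47.87, 46.36, 38.94, 29.83 and 48.06 CPM against 54.36, 70.74 and 84.67 CPM, again without overlap, and fell by 0.91 (SE 0.16, adjusted p = 1.49e-05). Mcm2 had 46, 42.68, 37.65, 34.41 and 42.43 CPM against 52.89, 63.69 and 70.79 CPM, without overlap, and fell by 0.77 (SE 0.11, adjusted p = 2.54e-07). Mcm5 had 35.31, 36.47, 32.95, 26.45 and 36.14 CPM against 42.84, 47.31 and 52.54 CPM and fell by 0.66 (adjusted p = 5.11e-06). Orc1 fell by 0.78 (SE 0.21, adjusted p = 0.00503) and Mcm10, which helps to activate the helicase, by 0.74 (SE 0.12, adjusted p = 3.23e-06). Tk1 had 19.06, 19.5, 21.76, 15.45 and 17.12 CPM against 26.37, 28.78 and 30.62 CPM.
Cdc6 overlapped: 8.146, 6.931, 6.517, 4.701 and 7.324 CPM against 6.645, 9.036 and 10.03 CPM, with a log2 fold change of -0.51 (adjusted p = 0.00198). E2f1 had 12.53, 17.42 and 19.35 CPM (lowest, median and highest) against 16.66, 21.07 and 24.54 CPM and fell by 0.39 (adjusted p = 0.0183). Over the 43 genes, all 5 Hp libraries lay below all 7 Ctrl libraries for 21, against 2.79% of all genes.

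The same groups in round 2 lay closer together. Rrm2 had 48.85, 59.53 and 65.65 CPM in the 6 Hp libraries, against 64.62 and 60.43 CPM in Ctrl, and Uhrf1 had 36.84, 43.18 and 47.78 CPM against 40.6 and 43.03 CPM. Both ranges overlapped. The difference of the Hp effect between rounds was itself called for 7 genes, while 1.34% of all genes were called in that direction: Uhrf1 (0.81, SE 0.25, adjusted p = 0.0455), Mcm10 (0.79, SE 0.19, adjusted p = 0.0122), the clamp loader subunit Rfc4 (0.75, SE 0.21, adjusted p = 0.0319), Mcm2 (0.58, SE 0.17, adjusted p = 0.0406), the large reductase subunit Rrm1 (0.57, SE 0.16, adjusted p = 0.0337), Prim2 (0.47, SE 0.13, adjusted p = 0.0337) and Mcm4 (0.47, SE 0.135, adjusted p = 0.0365). In each of the 7 the log2 fold change was lower in round 1 than in round 2, and 31 of the 43 had an unadjusted p under 0.05. At 24 h Hp gave 11 lower genes within round 1 (median -0.26, 0.704% of all genes called lower), among them Ccne1 (-0.52) and Rrm2 (-0.49), and none within round 2 (median 0.05, 0% of all genes, 2 with an unadjusted p under 0.05). The difference between rounds was called for none of the 43 at 24 h, with 27 at an unadjusted p under 0.05 and 0.124% of all genes called.

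All Hp libraries were of batch 3 and 6 of the 7 Ctrl libraries of round 1 at 48 h of batch 2. The 1 Ctrl library of batch 3 had the lowest mean level of the 43 genes among the 7 (4.489, against 4.519 to 4.749), and the 5 Hp libraries had 3.965, 4.188, 4.198, 4.298 and 4.3. Batch 3 alone, fitted with both rounds and with 2 Ctrl libraries at 48 h, gave 0 called genes for Hp at 48 h with edgeR (6 with an unadjusted p under 0.05, 0% of all genes called). Leaving out each Hp library of round 1 in turn gave 35 to 40 lower genes, with 12.9% to 20.5% of all genes called in either direction. Microglial markers summed to 890.2 to 3177 CPM with Hp and 765.8 to 3388 CPM in Ctrl of round 1, and none of the 9 was called. Of 8 neuronal markers 3 rose (median 0.90), and 1 astrocyte marker and 1 marker of oligodendrocyte precursors fell. Of the 6 neural progenitor markers 4 fell (median -1.11), and their sum was 416.3 to 631.5 CPM with Hp against 424.1 to 1063 CPM in Ctrl. The part of the batch and of these markers in the result was not tested.

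**Figure D3:**
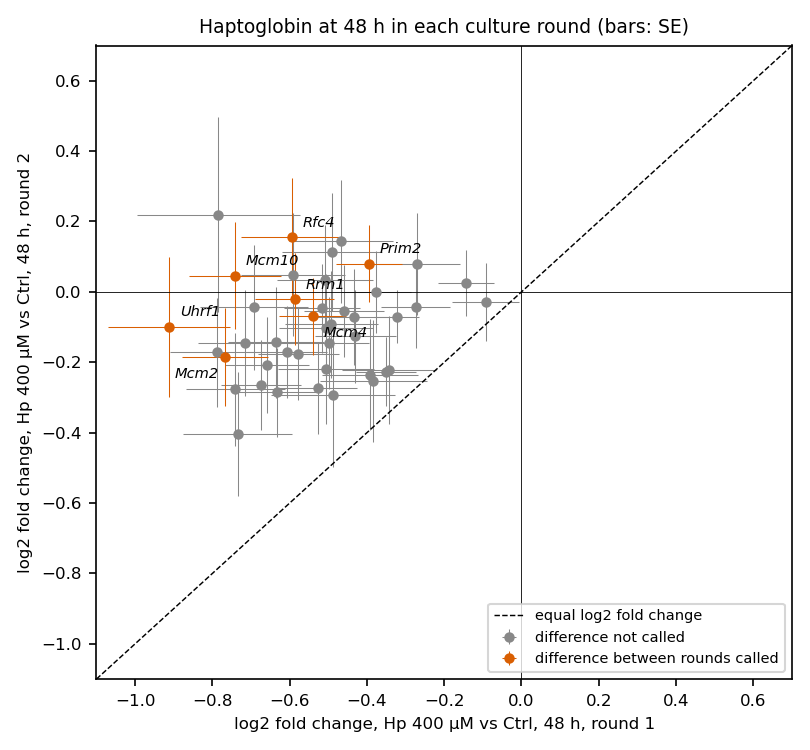
Log2 fold change of Hp 400 μM against Ctrl at 48 h within round 1 (x axis) and within round 2 (y axis) for each of the 43 genes, with SE bars, the line of equal values dashed, and the 7 genes with a called difference between rounds in orange. All 43 genes lie above the line, with medians of -0.51 in round 1 and -0.10 in round 2.

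Haptoglobin bound to hemoglobin was also compared with its parts. Against free Hb at 200 μM, HbHp had 9 lower genes at 24 h (median -0.30, 0.194% of all genes called lower) and 15 at 48 h (median -0.27, 1.84%), with medians over all genes of 0.00. With the replicate block there were 0 at 24 h (24 with an unadjusted p under 0.05, 0.00607% of all genes called lower) and 17 at 48 h (2.7%), and with batch 3 alone 20 (1.01%) and 0 (21 with an unadjusted p under 0.05, 0.0242%). In batch 3 both Hb libraries at 24 h were of round 1 and all 8 HbHp libraries of round 2, so the 20 calls rest on a round term taken from other groups. At 24 h the largest were Tk1 (-0.56, adjusted p = 0.0217), Mcm5 (-0.54, adjusted p = 0.00348), Mcm3 (-0.51, adjusted p = 0.00504), Ccne1 (-0.50, adjusted p = 0.00767) and the assembly factor subunit Chaf1b (-0.42). At 48 h they were Cdc6 (-0.58, SE 0.12, adjusted p = 0.00199), Tk1 (-0.58, adjusted p = 0.00437), Uhrf1 (-0.52, adjusted p = 0.0199), Rrm2 (-0.49, adjusted p = 0.00594) and Lig1 (-0.46). Within round 2, with 3 Hb libraries at 48 h, 6 genes, all among these 15, were lower (median -0.30, 0.107% of all genes called lower), led by Cdc6 (-0.75, SE 0.13, adjusted p = 0.000848). Tk1 (-0.72) and Lig1 (-0.54) were called there too, and Uhrf1 (-0.52) and Rrm2 (-0.51) were not. Cdc6 had 8.682, 8.89 and 10.91 CPM with Hb in that round and 4.952, 6.06 and 6.547 CPM with HbHp, without overlap. At 24 h within round 2, with 2 Hb libraries, none was called and 6 had an unadjusted p under 0.05 (median -0.18, 0% of all genes). There Tk1 was at -0.43, Mcm5 at -0.40, Mcm3 at -0.35, Chaf1b at -0.33 and Ccne1 at -0.25.

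Against Hp at 400 μM, HbHp had no called gene at 24 h (17 with an unadjusted p under 0.05, median -0.20, 0.619% of all genes) or at 48 h (2, median -0.03, 1.44%), and DESeq2 called none either. Both groups have libraries of round 2 and batch 3. Within round 2 the call was Tk1 alone at 24 h (-0.49, SE 0.13, adjusted p = 0.031, 0.272% of all genes called lower), and at 48 h it was Tk1 (-0.57, SE 0.12, adjusted p = 0.00114), Mcm10 (-0.40), Lig1 (-0.35) and Gins4 (-0.26), with 1.13% of all genes called lower. At 48 h within round 2, 1 of 9 microglial (median -0.50), 1 of 7 oligodendrocyte (-0.33) and 1 of 8 astrocyte markers (-0.15) were lower too, and in both rounds together 1 microglial (-0.44) and 1 astrocyte marker (-0.25). Their part in the result was not tested. Tk1 at 48 h had 20.46, 25.44 and 28.29 CPM in the 6 Hp libraries of round 2, above the 14.03 to 17.98 CPM of the 5 HbHp libraries.

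In Ctrl, 48 h against 24 h gave no called gene of the 43 with edgeR (9 with an unadjusted p under 0.05, median -0.12) and 2 with DESeq2, while 4.5% of all genes were called. Of the cell type markers, 2 of 9 microglial markers rose (median 0.61), and 4 of 7 oligodendrocyte (-0.31) and 2 of 6 endothelial markers (-0.64) fell. Within round 1, 3 genes were lower at 48 h (median -0.21, 0.959% of all genes called lower): Prim1 (-0.39), Cdc6 (-0.38) and Fen1 (-0.29). There 1 of 7 oligodendrocyte markers fell (median -0.32) and no other marker was called. The part of these markers in the result was not tested. Within round 2 none was called (9 with an unadjusted p under 0.05, median 0.09, 0.201% of all genes called). In round 1 Cdc6 had 9.624, 11.87 and 13.19 CPM (lowest, median and highest of 7) at 24 h and 6.645, 9.036 and 10.03 CPM at 48 h, with overlap. The test of a different effect at 48 h than at 24 h was passed by none of the 43 for 200 μM Hb, 200 μM HbHp, 400 μM HbHp or Hp with edgeR or DESeq2, with 0, 3, 0 and 1 genes at an unadjusted p under 0.05 and 0%, 0.0121%, 0.0304% and 0% of all genes called.

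The members did not all move alike. Pcna was called in 1 of the 15 comparisons with Ctrl in the shared fits (400 μM heme-albumin), and its levels at 48 h in round 2 were 152.9 and 159 CPM in Ctrl, 132.1 to 159.4 CPM with 400 μM HbHp and 145.6 to 175.2 CPM with Hp. Its counts are among those that pseudogenes make uncertain. Cdc45, Gins3, Orc1, Orc6, Pola2, Pole2, Rfc4 and Rfc5 were called in none of the 15. Tk1 and Fen1 were called in 6 each and both overlap another counted gene, and Mcm3, Lig1, Ccne1 and Chaf1a in 5 each. These comparisons share their Ctrl libraries, so the counts are not independent of each other.

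**Figure D4:**
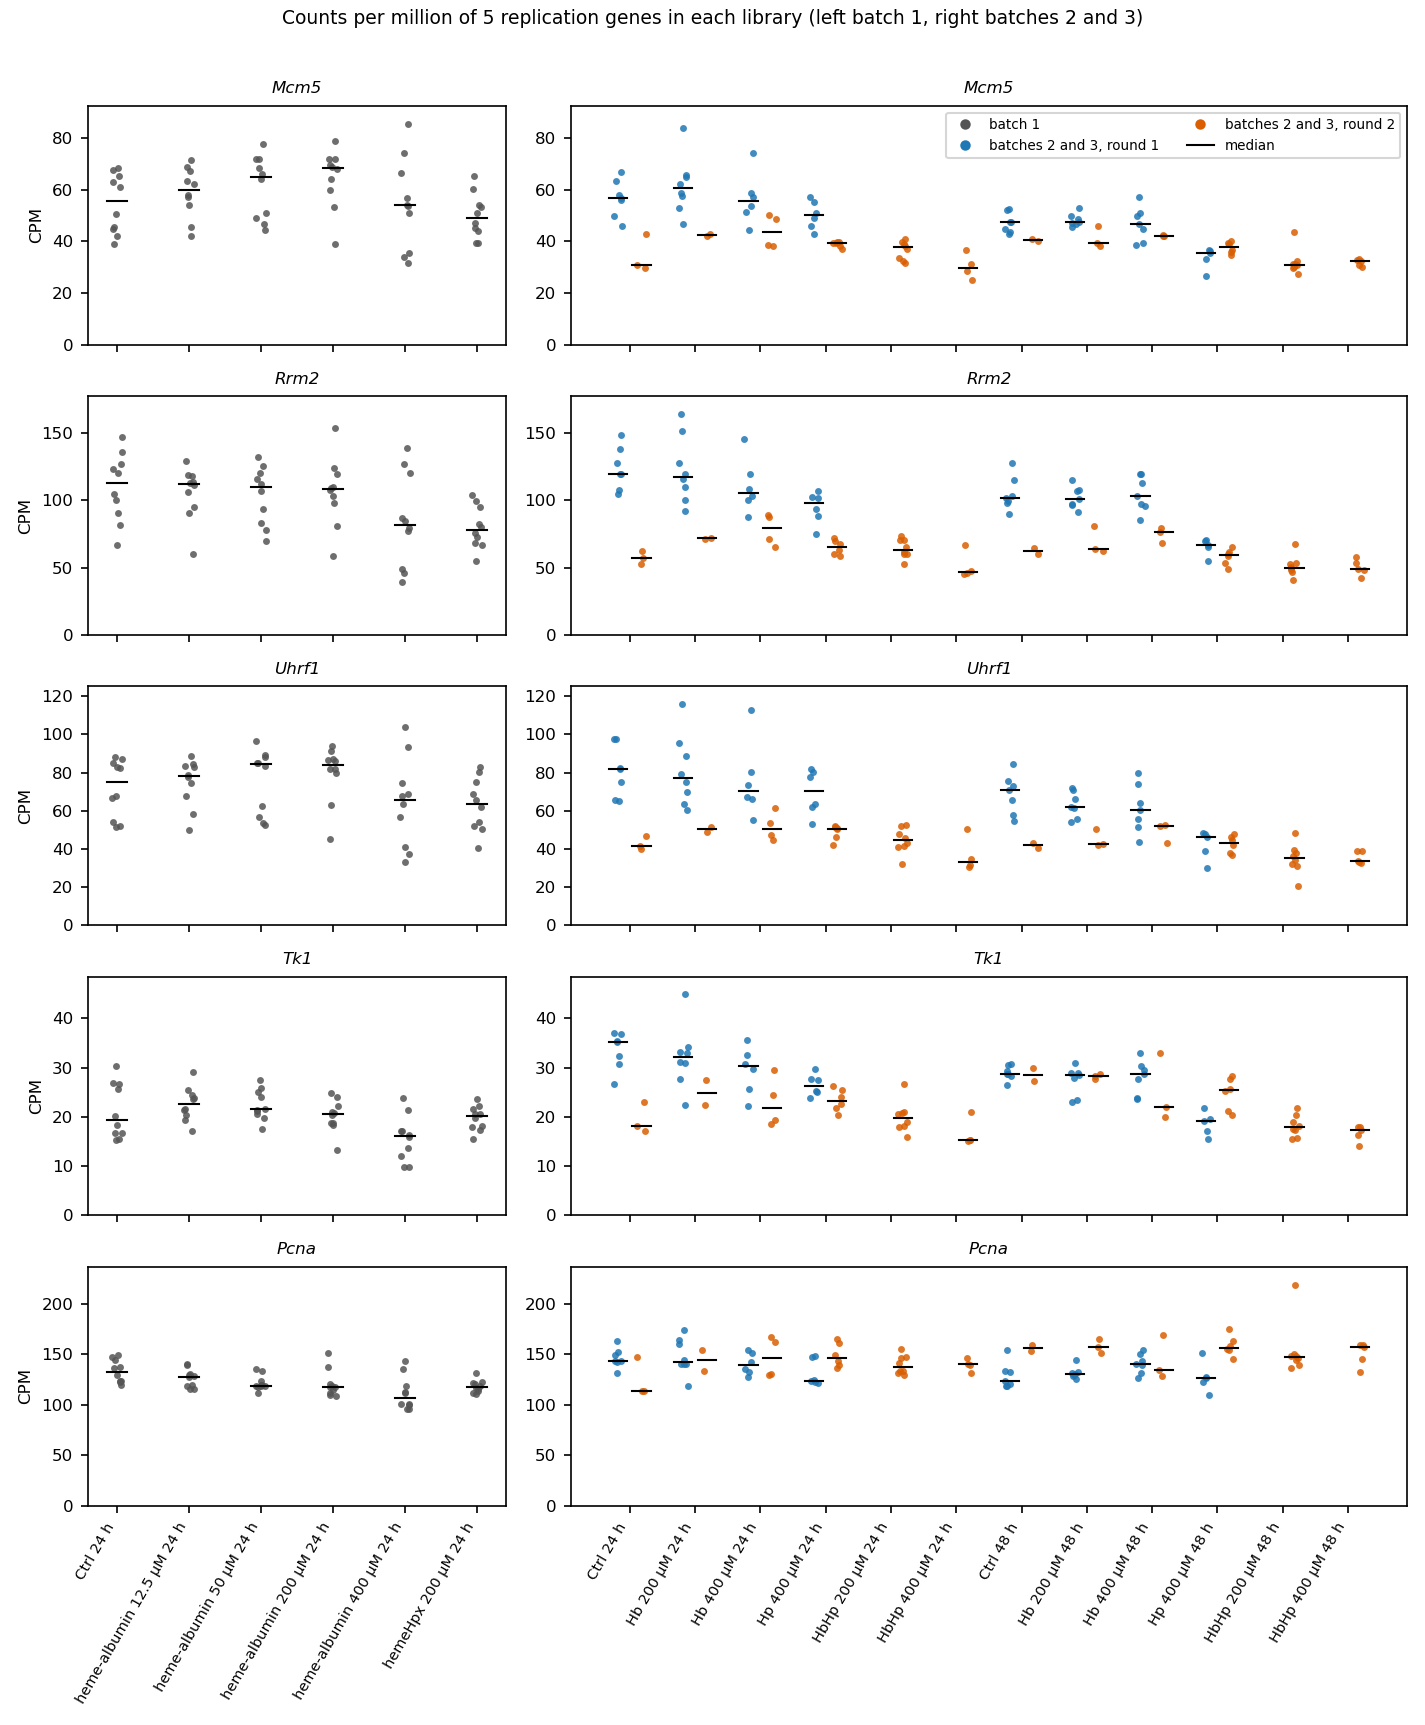
CPM (y axis, from 0) of Mcm5, Rrm2, Uhrf1, Tk1 and Pcna in every library by group (x axis), batch 1 on the left and batches 2 and 3 on the right, colored by culture round, with the median as a line. At 48 h the HbHp libraries at 400 μM lie below all Ctrl libraries for Tk1 (14.03 to 17.98 against 26.37 to 30.62 CPM), while those for Pcna (132.1 to 159.4 CPM) overlap the Ctrl libraries.

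Other genes of the cell cycle were read from lists. Of 22 mitosis genes, 22 fell in round 2 against round 1 (median -0.57), 13 and 14 with 200 and 400 μM HbHp at 48 h (medians -0.41 and -0.47), 18 with 400 μM HbHp at 24 h (-0.61) and 19 with Hp at 48 h (-0.43), and none rose. The shares of all genes called lower in these comparisons were 31.9%, 4.85%, 4.56%, 2.06% and 5.88%. Within round 2 none of the 22 was called with 400 μM HbHp at 24 h (-0.22). Within round 1 all 22 fell with Hp at 48 h (-0.83, against 11.3% of all genes) and within round 2 none was called (-0.11). Within round 2 at 48 h 1 of the 22 fell at each HbHp dose. Of 41 other replication genes, 26 fell with Hp at 48 h within round 1 (median -0.30) and none rose. Among 27 genes of cell cycle entry 13 fell and 3 rose there, where 8.78% of all genes were called higher. In both rounds together at 48 h, 5 of the 41 fell and 2 rose at each HbHp dose, and 6 fell and 1 rose with Hp. Of the 27, 4 fell and 2 rose with 200 μM HbHp, and 3 fell and 3 rose with 400 μM. With Hp 5 of them fell and 3 rose. The shares of all genes called higher in these fits were 7.04%, 7.39% and 4.88%. At 24 h none of the 41 was called with 200 μM HbHp, and 7 fell with 400 μM.

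Genes with an E2F match in the promoter table were compared with those without, as a description. With 200 μM HbHp at 48 h the median log2 fold change was -0.42 over the 14 genes with a match and -0.26 over the 21 without, and within round 2 it was -0.38 and -0.25. With Hp at 48 h in round 1 the medians were -0.57 and -0.53, with 400 μM HbHp at 24 h -0.46 and -0.41, with hemeHpx -0.23 and -0.19, and for round 2 against round 1 -0.32 and -0.25. The ranges of both classes overlapped in each of these. Rrm2 and Tk1, among the most lowered genes, have no match in their windows, and Mcm5, Cdc6 and Uhrf1 have the matches printed above.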

How the data were processed

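Bulk mRNA libraries were sequenced from BSCs, and 167 of 188 had a group in the labels. The values are raw counts per gene that the authors deposited, assigned to genes with featureCounts on GRCm39 per the submitters' processing notes; versions are not given in the sources used here. Batch 1 and batches 2 and 3 were analysed apart. There were 0 count columns of other series. Genes were kept by filterByExpr (minimum count 10, total 15) and scaled by TMM. Groups were compared with edgeR 4.0.16 (quasi-likelihood test, with limma 3.58.1, in R 4.3.3) with Benjamini-Hochberg adjustment over all genes tested and a threshold of 0.05. In batches 2 and 3 batch and culture round were terms of the model. Log2 CPM used a prior count of 2. Tables and figures were made with Python 3.11.15, pandas 2.3.3 and matplotlib 3.10.9.

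The genes and lists were chosen with earlier results of these data known. Named were 9 display genes (Mcm2, Mcm5, Cdc6, Pcna, Rrm2, Tyms, Ccne1, E2f1 and Uhrf1), whose levels the rule asked for in every group and which are printed here for the groups a result turns on, and, per comparison, up to 5 called genes with the largest absolute log2 fold change; values of Tk1 by library, genes named for not being called or for a called difference between rounds were added after their values were seen. Alternatives were DESeq2 1.42.0, other filters, a replicate block, other terms, subsets of libraries and leaving out libraries. The fits within rounds and the leaving out of single controls and of Hp libraries of round 1 were chosen after seeing the data. On simulated counts for 200 μM HbHp at 48 h (16473 genes), 38.8%, 55.2% and 81.8% of genes changed by 0.3, 0.5 and 1 on the log2 scale were called. There every group was given the same round effect. For hemeHpx (15554 genes) the shares were 44.8%, 71.6% and 93.9%. Promoters came from the RefSeq table of GRCm38.p6, a build other than that of the counts, and no gene coordinates of the counts are given. No 2 libraries of a group agreed within sampling noise.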

Additional observations from a re-analysis of the deposited data

Results flagged for a closer look

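In 160 combinations of a group of 4 to 10 libraries with a display gene or the mean of the 43 genes, 8 had a library far from the others, and chance alone flags about 1 in 20 groups. All 8 were the highest of their group. Replicate 4 of 200 μM HbHp at 48 h stood apart for the mean log2 CPM of the 43 genes (4.351), for Mcm5 (43.47 CPM) and for Rrm2 (67.66 CPM). Replicate 1 of that group stood apart for Pcna (218.9 CPM), and replicate 4 of 400 μM HbHp at 24 h for Rrm2 (67.06 CPM). Ccne1 stood apart in replicate 5 of Ctrl at 48 h (19.06 CPM) and in replicate 2 of 200 μM HbHp at 24 h (14.17 CPM). Uhrf1 stood apart in replicate 9 of 400 μM Hb at 24 h (112.7 CPM).

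The log2 effect of Hp at 48 h differed between the culture rounds for 7 genes, tested as round 2 minus round 1 in edgeR: Mcm2 by 0.5836, Mcm4 by 0.4705, Mcm10 by 0.7877, Rfc4 by 0.7484, Prim2 by 0.4748, Rrm1 by 0.5668 and Uhrf1 by 0.8121. Round 2 had 2 Ctrl libraries at this time.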

How the results depend on the processing

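Of 235 alternative counts of called genes, 171 stayed within 1.5 times the main count and 64 did not; the cause of the moves was not tested. With DESeq2 the counts were 8 for hemeHpx against Ctrl, 2 for Hp at 24 h, 14 for HbHp against Hb at 24 h and 2 for Ctrl over time, with 12.9%, 1.21%, 1.4% and 5.88% of all genes called in either direction. Without a filter hemeHpx had 0 (1.24%), and with at least 10 counts in every library Hp at 24 h and Ctrl over time had 2 each (1.03% and 5.83%). With only the 3 groups of 0 and 200 μM, hemeHpx had 11 against Ctrl (10.5%) and 19 against heme-albumin (28.4%). With a batch term only, HbHp against Ctrl had 24 (200 μM, 24 h), 35 (200 μM, 48 h) and 29 (400 μM, 48 h), Hp at 24 h 0, HbHp against Hb 38 and 29 (24 and 48 h) and HbHp against Hp at 24 h 3. In these fits 3.46%, 24.7%, 20.4%, 0.0607%, 5.71%, 14.1% and 1.02% of all genes were called in either direction, in the same order. With neither term these were 22 and 31 for 200 μM HbHp, 0 for Hp at 24 h, 35 and 25 against Hb, and 3 against Hp at 24 h, with 7.35%, 31.3%, 1.41%, 9.86%, 20.8% and 0.929% of all genes. In round 2 only, HbHp against Ctrl had 0 and 9 (200 μM, 24 and 48 h) and 0 and 8 (400 μM), Hp 0 and 0, HbHp against Hb 0 and 5, and HbHp against Hp 1 and 5, with 0% to 4.66% of all genes. In batch 3 only these were 3 and 2, 8 and 2, 0 and 0, 20 and 0, and 2 for HbHp against Hp at 24 h, with 0% to 3.65% of all genes. With round 2 and batch 3 only, HbHp against Hp had 1 and 6 (0.882% and 3.11%). Split by round, Hp had 11 (24 h) and 40 (48 h) in round 1 and 0 in round 2 at both times, HbHp against Ctrl 0 and 9 (200 μM) and 0 and 8 (400 μM), HbHp against Hb 0 and 6, HbHp against Hp 1 and 4, and Ctrl over time 3 in round 1. Among Hp libraries of batch 3 only, 17 genes differed between rounds, against 49.3% of all genes.

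The labels do not say what the codes in the library names mark. Of pairs of libraries with the same code, 94 of 169 in batch 1 and 124 of 291 in batches 2 and 3 correlated over 0.1 in their deviations from the group means. In batch 1 the median was 0.19 within a code and -0.01 between codes and 30 of 60 libraries correlated best with their own code, a hint from the data, not the design, that libraries of a code deviate together. In batches 2 and 3 the medians were 0.06 and -0.005, and 17 libraries correlated best with their own code. With the code as a replicate block the counts were 2 for heme-albumin at 200 μM, 17 at 400 μM, 15 for hemeHpx, 1 and 13 for HbHp at 200 and 400 μM and 24 h, 0 for Hp at 24 h and 0 for HbHp against Hb at 24 h. In these fits 17.4%, 33.8%, 23.8%, 1.27%, 3.29%, 0.401% and 0.0364% of all genes were called in either direction, in the same order.

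Leaving out single libraries gave 0 to 1 for Ctrl over time, 5 to 13 and 9 to 31 for HbHp at 200 and 400 μM and 24 h, 19 to 23 and 16 to 23 at 48 h, 0 to 2 at each dose at 48 h within round 2, 0 to 6 for HbHp against Hp at 24 h, 0 to 2 for Hp at 24 h, 22 to 26 at 48 h and 35 to 40 at 48 h within round 1. The shares of all genes called in the same fits, in the same order, ran from 3.16% to 5.58%, 0.698% to 2.48%, 1.94% to 7.69%, 10.2% to 11.9%, 8.03% to 12.8%, 0.361% to 1.18% (both doses), 0.0842% to 1.79%, 0.0789% to 0.978%, 11.8% to 14.1% and 12.9% to 20.5%. For HbHp against Hp the 6 came without HbHp replicate 4. For Hp at 24 h the 2 came without Ctrl replicate 7 or 8 and the 0 without replicate 10 or 11. Direction turned for Tk1 with 200 μM HbHp at 24 h (0.0285, round 2 only), and in the culture comparison for Cdc6 (0.0087 in batch 3 only, 0.0223 in Hp libraries only), for Ccne1 (0.0621 in Hp libraries only) and for Pcna, round 2 vs round 1 (-0.0632 in control libraries only). On counts simulated at these depths and group sizes, 55.2% (200 μM HbHp at 48 h) and 71.6% (hemeHpx) of changes of 0.5 on the log2 scale were called, and the part of depth in this was not tested. For HbHp the simulation gave every group the same round effect. In the data its median over the 43 genes at 48 h was -0.29 in Ctrl and 0.17 with Hp, which the share for HbHp does not cover. The comparisons of HbHp with Ctrl rest on few Ctrl libraries of round 2 and of batch 3.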

Other observations

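For 21 libraries the labels conflict, and they entered no comparison. In 20 the title names hemoglobin with haptoglobin and the treatment tag HbHpx, and in 1 the title and tag give 24 h without treatment and the library name 48 h. Scaled together with the labelled libraries of batches 2 and 3, 7 libraries tagged HbHpx at 400 μM and 24 h in round 1 had a mean log2 CPM of the 43 genes of 4.04 to 4.418 (median 4.271), and 3 in round 2 had 4.241, 4.472 and 4.473. At 48 h, 7 libraries of round 1 had 3.809 to 4.265 (median 4.077) and 3 of round 2 had 4.163, 4.315 and 4.479. The library without a treatment name had 4.216. On the same scaling, Ctrl of round 1 had 4.61 to 4.985 at 24 h and 4.483 to 4.771 at 48 h, and Ctrl of round 2 had 4.168 to 4.386 (3 libraries) and 4.377 to 4.427 (2 libraries).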
